A study of Mus musculus with 2 samples.

Results

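Calcium/calmodulin-dependent protein kinase II is encoded in the mouse by 4 genes, Camk2a, Camk2b, Camk2d and Camk2g, and all 4 were chosen by symbol among the 40276 features counted in each section. The kinase assembles from alpha, beta, delta and gamma subunits into a many-membered ring, is switched on by calcium-loaded calmodulin, and can stay active after calcium has fallen because its subunits phosphorylate each other. In forebrain neurons the alpha and beta subunits are abundant at excitatory synapses and are known for their part in long-term potentiation. In heart muscle the delta subunit is the main form and acts on the proteins that release calcium and take it back up.

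The data come from 1 normal mouse brain section and 1 normal mouse heart section, both 5 µm thick, formalin-fixed and paraffin-embedded. By the spRandom-seq protocol, random primers copied the RNA within the tissue, with a reverse transcription primer that, per the labels, lacked cell barcode 2 in both. Counts were read on an array of 4992 barcoded spots whose barcode list was the same for both sections. Each tissue is 1 library, so no comparison between them has a replicate check, and intervals below are exact 95% intervals that cover counting error only. A spot is a small region that can hold several cells or part of one, and fewer cells of a type and less RNA per cell cannot be told apart.

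Spots with at least 500 counts and 200 features were kept, 4080 in brain and 3726 in heart, of which 3342 barcodes were kept in both. They held 37143546 and 44613867 counts, with a median of 5981 per spot in brain and 9049.5 in heart. Nuclear ribosomal RNA took 31.1% of counts in brain and 48.5% in heart. Levels are given as CPM, counts per 1000000 counts of the kept spots, and, where stated, of counts outside ribosomal, mitochondrial and small structured RNA. All 11 pan-neuronal marker genes were at least 4-fold higher in brain (3842 CPM summed in brain and 166 CPM in heart, none at 0 in heart), and all 10 cardiomyocyte markers at least 4-fold higher in heart (19.8 CPM in brain and 8580 CPM in heart).

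The genes lie on different chromosomes: Camk2a on 18, Camk2b on 11, Camk2d on 3 and Camk2g on 14. Their annotated spans differ in length, at 62.5 kb for Camk2a, 96.7 kb for Camk2b, 250.025 kb for Camk2d and 59.2 kb for Camk2g. The union of their exons measures 7.47 kb, 9.13 kb, 22.5 kb and 6.40 kb in the same order. This union takes in all annotated exons and can exceed the length of the transcripts present, which was not measured. Orders per kb depend on it. A long gene collects more counts than a short one at the same level, so the order of the subunits is read only per kb, and their counts and shares of counts are given as measured. Features annotated inside the spans added little: Mir7220 and Mir6982 within Camk2a had 0 counts, and the antisense gene Gm15551 within Camk2d had 12 counts in brain and 23 in heart.

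The 250 bases upstream of the RefSeq start of Camk2b (GRCm38.p6, chr11:6065749-6065998, minus strand) and of Camk2d (GRCm38.p6, chr3:126596701-126596950, plus strand) are shown because these were the members found in the RefSeq promoter table. On GRCm38 the gene spans given above begin further upstream, at 6066362 for Camk2b and 126596302 for Camk2d, so both windows lie inside them. The windows put a subunit gene that was higher in brain beside the one that was higher in heart. They are written 5′ to 3′ on the gene's strand, and capitals mark the GC box GGGCGG on either strand.
Camk2b: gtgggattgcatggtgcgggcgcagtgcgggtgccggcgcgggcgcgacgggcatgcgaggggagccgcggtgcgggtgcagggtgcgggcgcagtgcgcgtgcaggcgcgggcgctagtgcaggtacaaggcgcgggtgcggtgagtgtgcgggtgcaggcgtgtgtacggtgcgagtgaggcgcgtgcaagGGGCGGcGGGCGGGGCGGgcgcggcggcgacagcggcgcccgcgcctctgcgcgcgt
Camk2d: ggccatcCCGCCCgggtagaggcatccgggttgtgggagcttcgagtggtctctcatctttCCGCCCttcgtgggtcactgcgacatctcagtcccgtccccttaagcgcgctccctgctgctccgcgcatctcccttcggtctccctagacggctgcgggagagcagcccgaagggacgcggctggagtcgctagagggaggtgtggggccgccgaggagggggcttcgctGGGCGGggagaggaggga
The Camk2b window was 78.4% G or C with 44 CpG pairs, and the Camk2d window 68.4% with 23. Of 27025 RefSeq promoter windows of this length, 98.2% had a lower G and C content than Camk2b and 88.8% a lower one than Camk2d. Each window held 3 GC boxes, all on the forward strand in Camk2b and 1 forward with 2 reverse in Camk2d. GGGCGG was found on either strand in 32.9% of all windows. Neither window held the letters TATAAA (in 13.0% of all windows) or TGACGTCA (in 1.62%), searched on both strands.

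Camk2a, the alpha subunit, had the largest ratio of brain over heart of the 4 genes. It had 18821 counts, or 507 CPM (499 to 514), in brain, against 807 counts, or 18.1 CPM (16.9 to 19.4), in heart. This is 28.0 times the heart level (26.1 to 30.1). Over counts outside ribosomal, mitochondrial and small RNA the levels were 795 CPM in brain and 41.7 CPM in heart, a ratio of 19.1.

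Camk2b, the beta subunit, which binds actin filaments and anchors the kinase in dendritic spines, followed the same direction. It had 11079 counts, or 298 CPM (293 to 304), in brain, against 688 counts, or 15.4 CPM (14.3 to 16.6), in heart. The ratio was 19.3 (17.9 to 20.9), and 13.2 outside ribosomal, mitochondrial and small RNA (468 CPM in brain and 35.6 CPM in heart). The intervals of the Camk2a and Camk2b ratios did not overlap.

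Camk2d, the delta subunit, was the only member of the 4 with a higher level in heart. It had 4601 counts, or 124 CPM (120.3 to 128), in brain, against 7125 counts, or 159.7 CPM (156 to 163), in heart. The heart level was 1.29 times the brain level (1.24 to 1.34). Outside ribosomal, mitochondrial and small RNA the levels were 194 CPM in brain and 368 CPM in heart, and heart was 1.90 times as high (1.83 to 1.97).

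Camk2g, the gamma subunit, which in neurons is known to carry calmodulin toward the nucleus, was higher in brain by less than Camk2a and Camk2b were. It had 2584 counts, or 69.6 CPM (66.9 to 72.3), in brain, against 1169 counts, or 26.2 CPM (24.7 to 27.7), in heart. The ratio was 2.65 (2.48 to 2.85), and 1.81 outside ribosomal, mitochondrial and small RNA (109 CPM in brain and 60.4 CPM in heart).

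A size rule asked for a 4-fold or larger difference and for 20 CPM or more in the higher section. Applied to the 6345 features that reach 20 CPM in either section, it called Camk2a and Camk2b higher in brain and neither Camk2d nor Camk2g in either direction. The same rule called 17.2% of those features higher in brain and 5.41% higher in heart, and on the scale outside ribosomal, mitochondrial and small RNA it called the same 2 members. There 9333 features reach 20 CPM, of which 8.96% were called higher in brain and 8.6% higher in heart. Ranked by the ratio of brain over heart among the 6345, Camk2a stood at percentile 98.3, Camk2b at 97.2, Camk2g at 72.1 and Camk2d at 20.7. The median log2 ratio over 11925 features at 5 CPM or more was 0.43 on the scale of all counts and -0.13 on the other. Taken relative to that median, the log2 ratios were 4.38 for Camk2a, 3.85 for Camk2b, -0.79 for Camk2d and 0.98 for Camk2g.

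**Figure D1:**
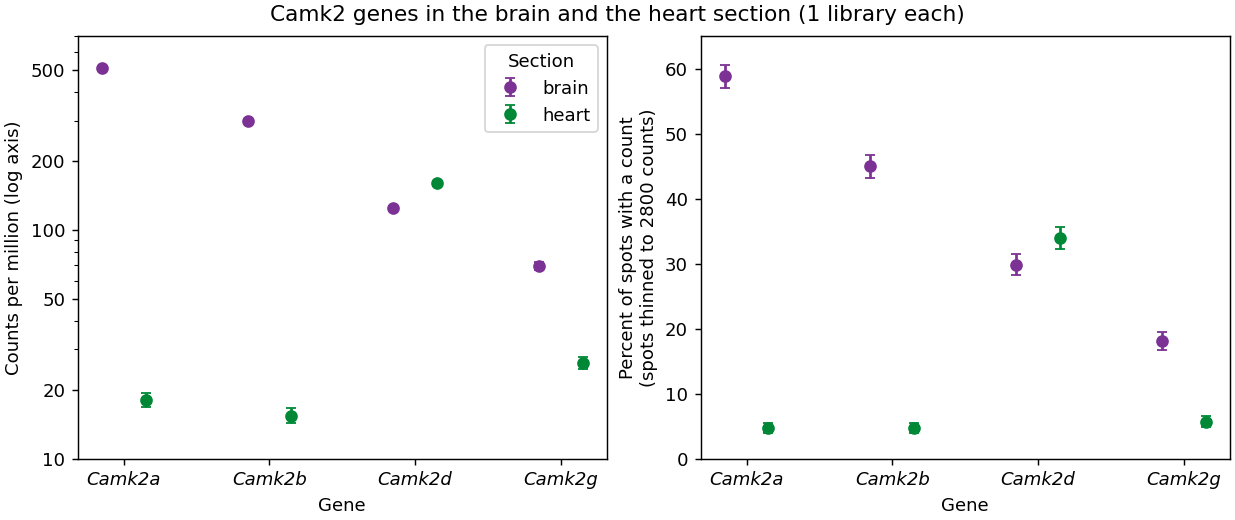
Levels of the 4 genes in CPM on a log axis (left) and percent of spots with a count after each spot was thinned to 2800 counts (right), with brain points left of heart points; bars are exact 95% counting intervals of 1 library each. Camk2a stands at 507 CPM in brain and 18.1 CPM in heart, while Camk2d lies at 124 CPM in brain and 159.7 CPM in heart.

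Counts of genes that the tissue does not use give a floor for these levels. Olfactory and vomeronasal receptor genes, 1552 in all, had 0.0665 CPM per kb of gene span in brain and 0.0860 in heart. Per kb of span, Camk2a stood 122 times above that density in brain and 3.37 times in heart. Camk2b stood 46.4 times above it in brain and 1.85 times in heart, so that a density equal to that of the receptor genes would equal 2.16% of its brain counts and 53.9% of its heart counts. Camk2g was 17.7 times above the density in brain and 5.15 times in heart. Camk2d, whose span is the longest, was 7.45 times above it in brain and 7.43 times in heart. With the density taken off, the log2 ratio of brain over heart was 5.30 for Camk2a and 5.36 for Camk2b. No interval was computed for the subtracted ratios, so the order of these genes cannot be read from them. The percentages and the subtracted ratio of Camk2b rest on spreading counts over the gene span, which applies only where reads in introns were counted. Spread over exons instead, the same receptor counts would equal 0.478% of the brain and 11.96% of the heart counts of Camk2b, and the log2 ratios were 4.93 for Camk2a and 4.45 for Camk2b. Densities by spot group below are per kb of gene span.

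The thinned spots gave the same direction for each gene as its CPM. At 2800 counts per spot, a Camk2a count was found in 58.8% (57.1 to 60.6) of 3060 brain spots and in 4.73% (3.99 to 5.56) of 2939 heart spots. Camk2b was found in 45.0% of brain spots (43.2 to 46.8) and 4.70% of heart spots (3.96 to 5.52), Camk2d in 29.9% (28.3 to 31.5) and 33.9% (32.2 to 35.7), and Camk2g in 18.0% (16.7 to 19.4) and 5.61% (4.81 to 6.51), brain before heart for each. Without thinning the percentages were 72.2 in brain and 17.1 in heart for Camk2a, 61.5 and 15.3 for Camk2b, 47.9 and 62.3 for Camk2d, and 34.3 and 22.1 for Camk2g. A Camk2a and a Camk2b count met in 878 thinned brain spots (28.7%) and in 6 thinned heart spots (0.204%). Camk2d alone of the 4 was counted in 200 brain spots (6.54%) and 857 heart spots (29.2%). None of the 4 was counted in 14.1% of brain spots and 56.7% of heart spots. The most counts in 1 unthinned spot were 148 in brain and 4 in heart for Camk2a, and 47 in brain and 19 in heart for Camk2d.

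The mix of subunits differed between the sections on every length scale. Together the 4 genes had 37085 counts, 998 CPM (988 to 1009), in brain and 9789 counts, 219 CPM (215 to 224), in heart, a ratio of 4.55 (4.45 to 4.65). In brain, counts divided into 50.8% Camk2a (50.2 to 51.3), 29.9% Camk2b (29.4 to 30.3), 12.4% Camk2d (12.1 to 12.7) and 6.97% Camk2g (6.71 to 7.23). In heart, counts divided into 8.24% Camk2a (7.71 to 8.81), 7.03% Camk2b (6.53 to 7.55), 72.8% Camk2d (71.9 to 73.7) and 11.9% Camk2g (11.3 to 12.6).

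Per kb of exons the order of the subunits in brain was Camk2a at 67.9 CPM per kb, Camk2b at 32.7, Camk2g at 10.9 and Camk2d at 5.51. In heart it was Camk2d at 7.10 CPM per kb, Camk2g at 4.09, Camk2a at 2.42 and Camk2b at 1.69. Both orders were the same per kb of gene span. Camk2d thus made up 46.4% of the heart total per kb of exons and 41.7% per kb of span, lower than its 72.8% of counts, and Camk2g 26.7% and 28.9%. In brain Camk2a made up 58.0% per kb of exons and 63.0% per kb of span. The sources used here do not say whether counts include reads in introns, so both lengths are given.

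**Figure D2:**
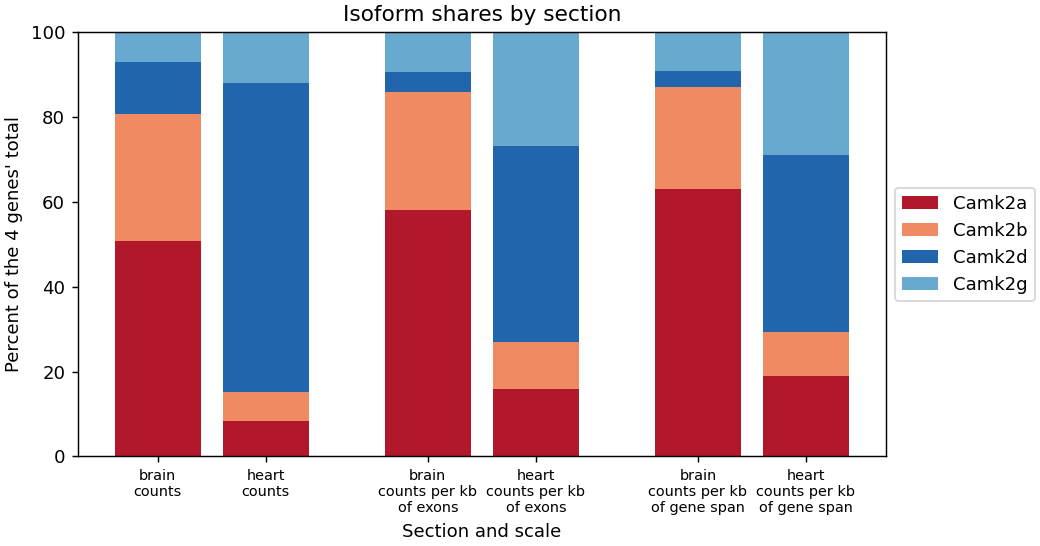
Stacked bars of the share of each Camk2 gene in the total of the 4, in percent, for brain and heart on 3 scales: counts, counts per kb of exons, and counts per kb of gene span. Camk2a is the largest brain block on each scale (50.8%, 58.0% and 63.0%) and Camk2d the largest heart block (72.8%, 46.4% and 41.7%).

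Genes that work with the kinase were taken from 8 lists with 62 genes in all, of which 52 reach 20 CPM in either section. Of these 52, 27 were past the size rule in brain and 7 in heart, where the rule called 17.2% and 5.41% of all 6345 features. The median log2 ratio of all 62 genes was 2.12, beside 0.71 over the 6345. The 62 include genes below 20 CPM in both sections, which the 6345 do not. The lists were drawn up with earlier results of these sections known. Calm2 and Calm3 encode calmodulin, the calcium sensor that switches the kinase on, and both were past the rule in brain. Calm2 had 229 CPM in brain and 27.1 CPM in heart, a ratio of 8.42, and Calm3 had 201 CPM in brain and 23.1 CPM in heart, a ratio of 8.72. Camk2n1, an inhibitor protein of the kinase, had 386 CPM in brain and 9.01 CPM in heart, a ratio of 42.9 (38.8 to 47.4) that exceeded those of all 4 kinase genes.

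Of 8 other calmodulin kinases and their kin, 4 were past the rule in brain and none in heart. Camkv, a kinase-like vesicle protein, had 46.7 CPM in brain and 0.941 CPM in heart, and Camk4, a kinase of the neuronal nucleus, had 195 CPM in brain and 24.9 CPM in heart. The upstream kinases Camkk1 and Camkk2 had ratios of 8.26 and 4.73. Camk1d, a kinase of the calmodulin kinase I group, had 671 CPM in brain and 709 CPM in heart, a ratio of 0.946. Of 11 phosphatases and their regulators, which act against kinases or are acted on by them, Ppp3ca, a catalytic subunit of calcineurin, was the only one past the rule (941 CPM in brain and 140.3 CPM in heart).

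Of 16 postsynaptic partners and substrates, 12 were past the rule in brain and none in heart, and the median log2 ratio was 3.78. The NMDA receptor subunit Grin2b, to which the kinase docks, had 1184 CPM in brain and 46.3 CPM in heart, and the AMPA receptor subunit Gria1, a substrate, had 788 CPM in brain and 34.0 CPM in heart. Gria2 had the largest ratio of the list, 62.8, and Shank1, a scaffold of the postsynaptic density, had 230.0 CPM in brain and 6.57 CPM in heart. Shank3 was at 63.7 CPM in brain and 59.5 CPM in heart, a ratio of 1.07 that turned to 0.728 outside ribosomal, mitochondrial and small RNA. All 5 presynaptic substrates were past the rule in brain, among them Syn1, which tethers synaptic vesicles, at 115 CPM in brain and 6.16 CPM in heart.

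Of 12 cardiac substrates and partners, 6 were past the rule in heart and none in brain, and the median log2 ratio was -2.46. The potassium channel gene Kcnd3, the calcium channel subunit gene Cacnb2 and the histone deacetylase genes Hdac4 and Hdac5 were short of the rule with ratios above 1, at 2.36, 1.54, 1.37 and 1.65 in that order. Outside ribosomal, mitochondrial and small RNA these ratios were 1.61, 1.05, 0.932 and 1.13, so that of Hdac4 turned below 1. Ryr2, the calcium release channel, had 582 CPM in brain and 2433 CPM in heart. Pln, or phospholamban, which restrains the calcium pump, had 1.29 CPM in brain and 1055 CPM in heart, and the pump Atp2a2 itself had 337 CPM in brain and 2443 CPM in heart. Of 5 splicing factors known to act on Camk2d, Rbm20 was 18.2-fold higher in heart (20.7 CPM in brain and 377 CPM in heart) and Rbfox1 10.3-fold higher in brain (3023 CPM in brain and 293 CPM in heart). The counts are per gene, so Camk2d splice forms were not analysed here.

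The kept spots of each section were grouped by their expression with the 4 Camk2 genes, the partner lists and all marker genes left out, which gave 10 groups in brain and 5 in heart. Groups are called by number and by the genes with the largest fold over the rest of the section. Spots of a section share 1 library and are not replicates, so differences among groups are described with counting intervals and were not tested. All 4 genes had counts in each of the 15 groups.

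In brain, Camk2a ranged over 18.8-fold among the groups and Camk2b over 23.0-fold, while Camk2d ranged over 5.27-fold and Camk2g over 3.45-fold. Outside ribosomal, mitochondrial and small RNA the Camk2a range was 13.4-fold. On that scale its highest group was group 2 at 1342 CPM, with 1248 CPM in group 9, so the top group depended on the scaling. The lowest group on both scales, group 10, had 25 Camk2a counts. Over all counts, Camk2a ran from 940.5 CPM in group 9 to 50.1 CPM in group 10. The groups between were, from high to low, 2, 8, 1, 6, 7, 3, 5 and 4. Along that order 2 of 9 neighbouring pairs had overlapping intervals. Camk2b ran from 738 CPM in group 9 through groups 8, 7, 1, 2, 3, 4, 5 and 6 to 32.1 CPM in group 10, with 3 of 9 pairs overlapping. Camk2d was highest in groups 4 and 6, at 179.4 and 179.2 CPM, and lowest in group 8 at 34.0 CPM, with 6 of 9 pairs overlapping. Outside ribosomal, mitochondrial and small RNA, Camk2d was 286 CPM in group 4 and 292 CPM in group 6. Camk2g was highest in group 1 at 94.2 CPM and lowest in group 8 at 27.3 CPM, and in its order all 9 pairs overlapped.

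**Figure D3:**
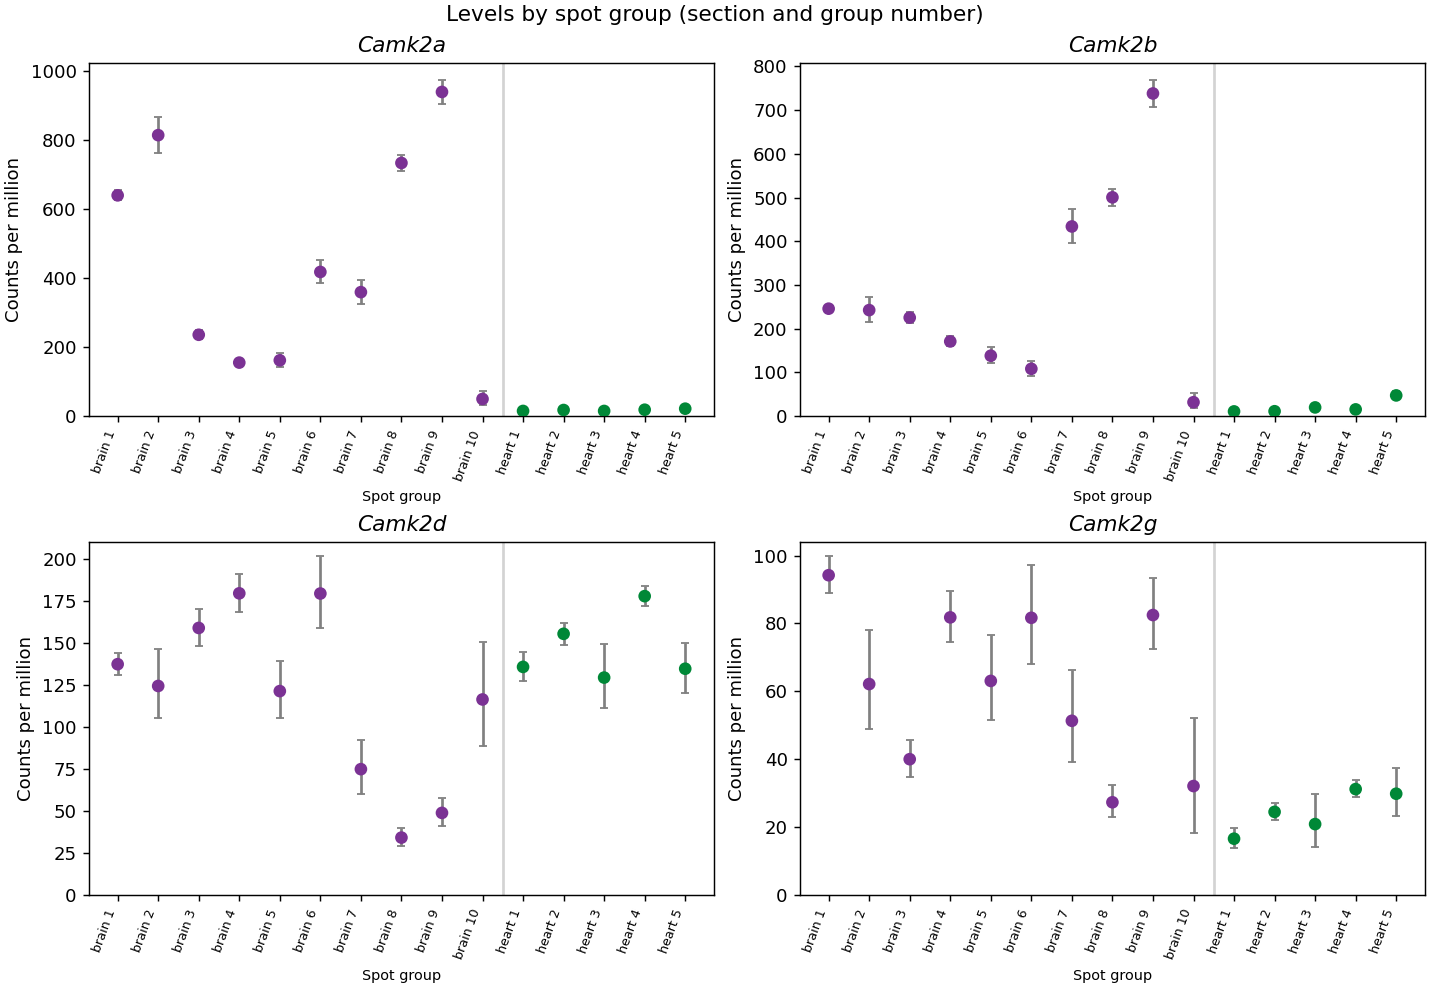
Level of each Camk2 gene in CPM by spot group, with the 10 brain groups left of the dividing line and the 5 heart groups right of it, each labelled by its number; bars are exact 95% counting intervals. Camk2a and Camk2b peak in brain group 9 (940.5 and 738 CPM), Camk2d is lowest in brain groups 8 and 9 (34.0 and 48.7 CPM), and Camk2b in heart is highest in group 5 (47.6 CPM).

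Both brain groups with raised hippocampus markers had much Camk2a and Camk2b and little Camk2d. Group 9 (60 spots, led by Dsp, Maml2 and Slc29a4, hippocampus markers 3.18-fold of the rest) had 940.5 CPM of Camk2a (906 to 976), against 469 CPM in the rest of the section. Its Camk2b was 738 CPM (707 to 769), against 260 CPM in the rest. Group 8 (130 spots, led by 4921539H07Rik, Neurod6 and Ctxnd1, hippocampus markers 3.39-fold) had 735 CPM of Camk2a (711 to 759), against 471 CPM, and 500.4 CPM of Camk2b (481 to 520.3), against 267 CPM. Camk2d was 48.7 CPM in group 9, against 130.5 CPM in its rest, and 34.0 CPM in group 8, against 138 CPM in its rest. These were 2.10 and 2.63 times the receptor gene density of the same groups.

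Camk2g differed between these 2 groups. It was 82.5 CPM (72.5 to 93.4) in group 9, against 68.4 CPM in the rest, and 27.3 CPM (22.9 to 32.2) in group 8, against 76.2 CPM in the rest. The ratio of Camk2d to Camk2g counts was 0.591 in group 9 (0.478 to 0.728), 1.25 in group 8 (0.991 to 1.57) and 1.78 in the whole brain section. Per kb of exons Camk2d made up 0.977% of the 4 genes in group 9 and 0.952% in group 8, and Camk2g 5.81% in group 9 and 2.68% in group 8. These groups also had the deepest spots, with medians of 46271 counts in group 9 and 35549.5 in group 8, and the part of depth in the result was not tested.

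The group with raised cortex markers was rich in Camk2a relative to Camk2b. Group 1 (1000 spots, led by Pdzrn3, Hs3st2 and Mef2c, cortex markers 2.38-fold) had 641 CPM of Camk2a (627 to 655), against 440.4 CPM in the rest, and 246 CPM of Camk2b (237 to 255), against 324 CPM in the rest. Its ratio of Camk2a to Camk2b counts was 2.61 (2.50 to 2.72), beside 1.47 (1.40 to 1.54) in group 8 and 1.27 (1.21 to 1.35) in group 9. Camk2g reached its highest level there, 1.64-fold of the rest (1.52 to 1.78).

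In the group with raised striatum markers Camk2b had more counts than Camk2a. Group 7 (157 spots, with Penk and Drd2 among its leading genes, striatum markers 6.14-fold) had 360 CPM of Camk2a (326 to 396), against 511 CPM in the rest, and 434 CPM of Camk2b (397 to 474), against 294 CPM in the rest. The ratio of Camk2a to Camk2b counts was 0.830 (0.727 to 0.947). Per kb of exons the subunits were nearly level, at 45.0% for Camk2a and 44.4% for Camk2b. Inhibitory neuron markers summed to 2.67-fold of the rest there and excitatory neuron markers to 0.19-fold.

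The groups with raised thalamus and hypothalamus markers had less Camk2a and Camk2b and more Camk2d than the rest of the section. Camk2d was also above the rest in groups 1 and 6, at 1.17-fold (1.10 to 1.24) and 1.48-fold (1.30 to 1.67). Group 3 (653 spots, led by Shox2, Prkcd and Synpo2, thalamus markers 5.02-fold) had 236 CPM of Camk2a (223 to 250), against 551 CPM in the rest, and 159 CPM of Camk2d (148 to 170), against 118 CPM. Camk2g was 40.0 CPM there (34.8 to 45.7), against 74.5 CPM in the rest. Group 4 (575 spots, led by Pmch, Avp and Dlk1, hypothalamus markers 6.26-fold) had 156 CPM of Camk2a (145 to 166), against 568 CPM in the rest. Its Camk2b was 171 CPM (160.2 to 182), against 320.4 CPM, and its Camk2d 179 CPM (168 to 191), against 114 CPM.

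Group 4 held 26.5% Camk2a, 29.1% Camk2b, 30.5% Camk2d and 13.9% Camk2g by counts, and per kb of exons 34.5%, 31.1%, 13.2% and 21.2% in the same order. Pan-neuronal markers were 0.77-fold of the rest in group 4 and 1.07-fold in group 3. Per 100 pan-neuronal counts there were 5.08 Camk2a counts in group 4 and 5.81 in group 3, against 14.1 in group 1, 17.3 in group 8 and 24.7 in group 9.

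Groups 5 and 6, with pan-neuronal markers below the rest, differed in Camk2a. Group 5 (380 spots, led by Mobp, Ermn and Tmem88b, myelin markers 10.2-fold and pan-neuronal markers 0.69-fold) had 162 CPM of Camk2a (143 to 183), against 523 CPM in the rest, while its Camk2d stood at 121 CPM, against 124 CPM. Inhibitory neuron markers summed to 4.10-fold of the rest in group 5, with 6 of 7 genes higher, and excitatory neuron markers to 0.37-fold. The part of these markers in its Camk2a level was not tested. Group 6 (364 spots, led by Ptgds, Thbd and Fmod, fibroblast and matrix markers 15.4-fold and pan-neuronal markers 0.41-fold) had 418 CPM of Camk2a (387 to 452), against 511 CPM in the rest, but only 108 CPM of Camk2b (92.8 to 126), against 307 CPM. Its ratio of Camk2a to Camk2b counts, 3.86 (3.26 to 4.60), was the highest of the 10 groups, and 25.6 Camk2a counts came with every 100 pan-neuronal counts. Camk2d in group 6 was 179 CPM (159 to 201), against 121 CPM in the rest. The receptor gene density in group 6 was 2.28-fold of the rest. With that density taken off, Camk2a was 0.808-fold, Camk2b 0.315-fold and Camk2d 1.36-fold of the rest.

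Group 2 (742 spots, led by 3300005D01Rik, Gm33838 and Ddn) resembled group 6 in this ratio, at 3.36 (2.94 to 3.84), and the 2 intervals overlapped. It had 815 CPM of Camk2a (765 to 868), against 496 CPM in the rest, and 243 CPM of Camk2b (215 to 272), against 300.1 CPM. Astrocyte markers were 1.91-fold and pan-neuronal markers 0.87-fold of the rest, and its spots were the shallowest of the brain groups, with a median of 1294.5 counts. The part of astrocyte markers and of depth in the result was not tested.

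Group 10 (19 spots, led by Ttr, Sostdc1 and Mfrp, choroid plexus markers 178-fold and pan-neuronal markers 0.17-fold) had the least of the family, 115 counts in all. Camk2a was 50.1 CPM (32.4 to 74.0) there, against 513 CPM in the rest, and Camk2b 32.1 CPM (18.3 to 52.1), against 302 CPM. Camk2d was 116 CPM (88.3 to 150.2), against 124 CPM, and made up 50.4% of the family's counts (41.0 to 59.9). Nuclear ribosomal RNA took 44.1% of the counts of group 10. Outside ribosomal, mitochondrial and small RNA, Camk2d was 233 CPM in group 10 and 194 CPM in the whole brain section. Per kb of exons Camk2a was at 32.9%, Camk2d at 25.3% and Camk2g at 24.6%, resting on 25, 58 and 16 counts. No interval was computed for the shares per kb, so their order in group 10 cannot be read.

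**Figure D4:**
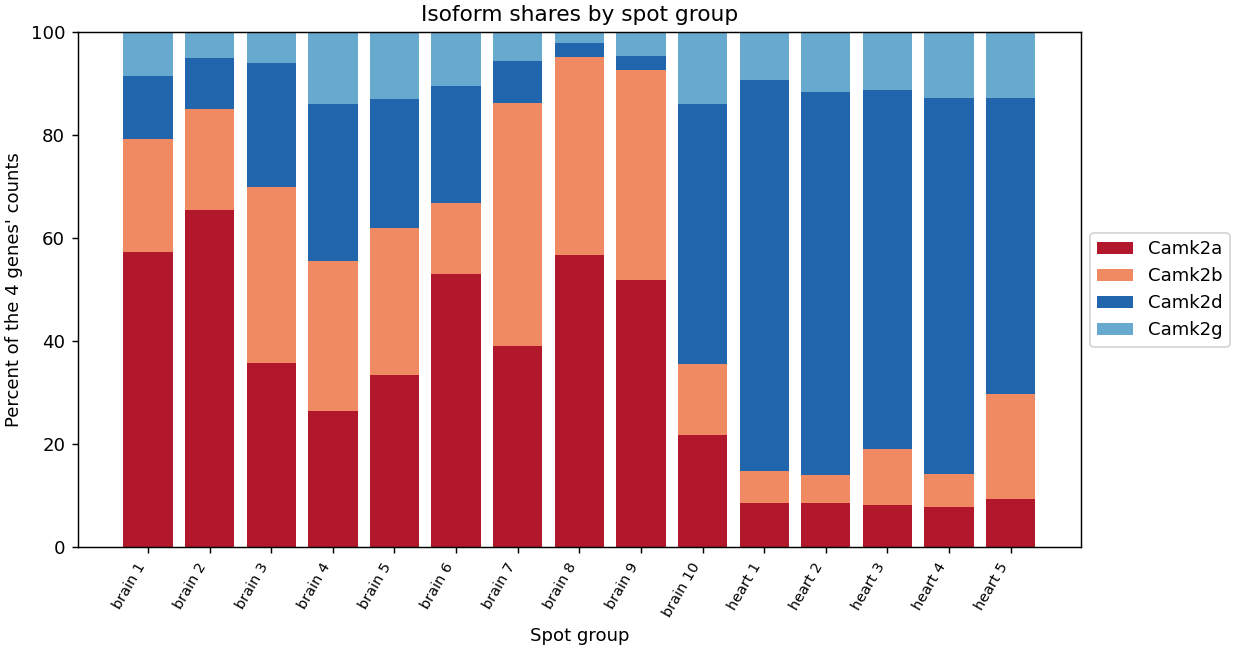
Stacked bars of the share of each Camk2 gene in the counts of the 4 genes, in percent, by spot group, with brain groups left of heart groups. Camk2a ranges between 21.7% in brain group 10 and 65.5% in brain group 2, and Camk2d holds between 57.5% and 76.0% in the heart groups.

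In heart the mix was more even across groups. Camk2d ranged over 1.37-fold, with 178 CPM (172 to 184) in group 4, 155 CPM (149 to 162) in group 2, 136 CPM (127 to 144) in group 1, 135 CPM (120.3 to 150) in group 5 and 129 CPM (111 to 149) in group 3. In that order 2 of 4 neighbouring pairs overlapped. Group 4 (769 spots, led by Myl7, Myl4 and Dkk3, atrial markers 4.36-fold of the rest) was 1.22-fold of the rest for Camk2d (1.16 to 1.27) and 1.39-fold for Camk2g (1.24 to 1.56). The Camk2d order depended on the scaling. Outside ribosomal, mitochondrial and small RNA, Camk2d was 387 CPM in group 1, 382 CPM in group 2 and 373 CPM in group 4. On that scale group 3 had 299 CPM and group 5 had 262 CPM. Groups 1 and 2 (1016 spots led by mt-Tt, mt-Tc and mt-Tk, and 818 spots led by Trim72, Lrrc2 and Fabp4) held 76.0% and 74.2% Camk2d by counts. Group 3 (801 spots, led by Dnah7c, 3300005D01Rik and Mocos) was the shallowest, with a median of 1076 counts, and had 267 counts of the family.

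Camk2b stood out in 1 heart group. Group 5 (322 spots, led by the globin genes Hba-a1, Hbb-bs and Hbb-bt, erythrocyte markers 67.9-fold) had 47.6 CPM of Camk2b (39.3 to 57.1), against 13.6 CPM in the rest, a fold of 3.51 (2.84 to 4.29). These were 115 counts in 89 spots, of which 67 had 1 count, 18 had 2 and 4 had 3. Camk2b was 20.4% of the family's counts there (17.1 to 23.9), and 5.47% to 10.9% in the other heart groups.

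The same spots differed in other ways. Their cardiomyocyte markers were 0.32-fold and their pan-neuronal markers 2.64-fold of the rest, with all 11 pan-neuronal genes higher. Their receptor gene density was 0.214 CPM per kb, 2.72-fold of the rest, and Camk2b stood 2.30 times above it, within the 1.57 to 2.31 of the other 4 groups. With each group's density taken off, Camk2b had 26.9 CPM in group 5, against 5.98 CPM in the rest, while Camk2d had 81.0 CPM, against 141 CPM. The part of the receptor gene density and of pan-neuronal markers in the Camk2b result was not tested.

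The kept spots were ranked into 5 equal bins of each marker sum. The bins also differed in depth, with a median of 8300 counts per spot in the highest and 2717.5 in the lowest pan-neuronal bin, and the part of depth in the ratios was not tested. In brain, the bin highest in pan-neuronal markers had 552 CPM of Camk2a and the lowest bin 290.0 CPM, a ratio of 1.90 (1.78 to 2.03). Camk2b had 304 CPM in the highest bin and 119 CPM in the lowest, a ratio of 2.55 (2.30 to 2.83). Camk2d had a ratio of 0.841 (0.759 to 0.933) and Camk2g of 0.989 (0.854 to 1.15). The course of Camk2a and Camk2b was not even, since both were highest in the middle bin, at 603 and 406 CPM.

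Along myelin markers the highest bin had less Camk2a than the lowest, 255 CPM against 675 CPM, and less Camk2b, 195 CPM against 351 CPM. Camk2d and Camk2g had ratios of 0.911 (0.810 to 1.02) and 0.908 (0.768 to 1.07). Along astrocyte markers Camk2a and Camk2b parted: the highest bin had 619 CPM of Camk2a against 500.1 CPM in the lowest, and 203 CPM of Camk2b against 388 CPM. Camk2d had a ratio of 1.31 and Camk2g of 1.37 there.

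**Figure D5:**
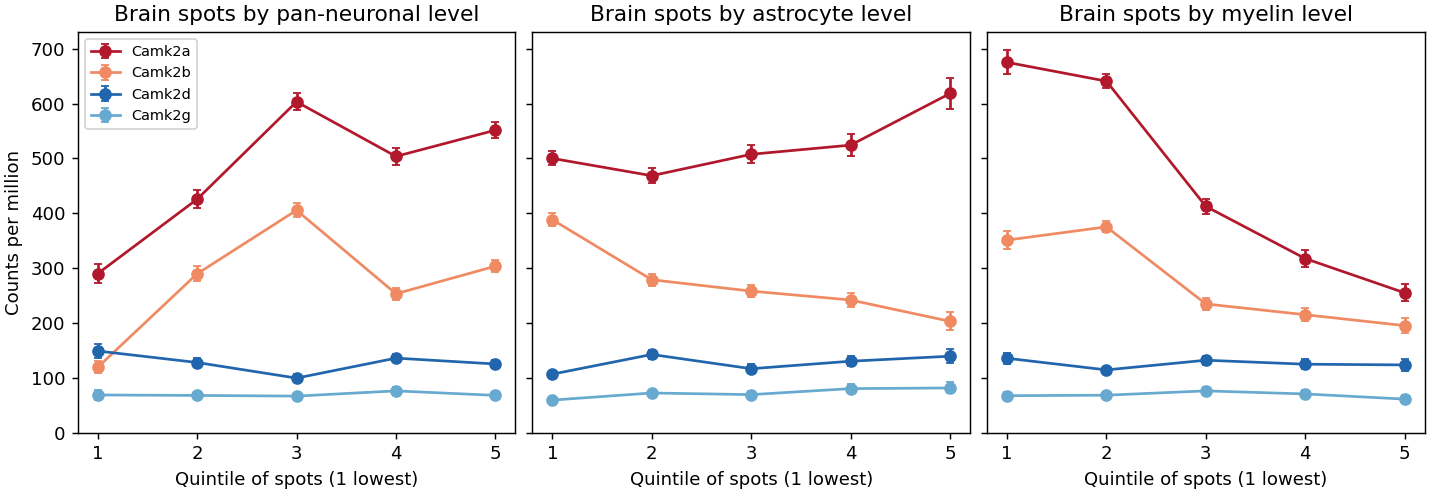
Level of each Camk2 gene in CPM across 5 equal bins of brain spots, ranked from low to high by the pan-neuronal, astrocyte or myelin marker sum. Bars are exact 95% counting intervals. Camk2a and Camk2b are higher in the highest than in the lowest pan-neuronal bin (ratios 1.90 and 2.55).

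In heart, the bin highest in cardiomyocyte markers had 152 CPM of Camk2d and the lowest bin 179 CPM, a ratio of 0.846 (0.781 to 0.916). Over counts outside ribosomal RNA the same ratio was 1.02, so its direction depended on the scaling. Camk2b had 10.8 CPM in the highest bin and 33.1 CPM in the lowest, a ratio of 0.325 (0.254 to 0.413), and of 0.391 outside ribosomal RNA. Depth differed here too, with a median of 7814 counts in the highest and 1436.5 in the lowest endothelial bin. Along fibroblast and matrix markers, whose lowest bin had a marker sum of 0, Camk2d had 174 CPM in the highest bin and 138 CPM in the lowest, a ratio of 1.26 (1.14 to 1.41). Along endothelial markers Camk2d had a ratio of 1.04 (0.931 to 1.16) and Camk2g of 1.50 (1.11 to 2.08).

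Of the partner genes, 6 are given by brain group as examples chosen after their values were seen. Camk2n1, the inhibitor, was 722 CPM in group 1, against 219.7 CPM in the rest (3.29-fold, 3.18 to 3.40), but 0.40-fold of the rest in group 8 and 0.38-fold in group 9, where Camk2a and Camk2b were high. Ppp3ca, of calcineurin, was 2.28-fold of the rest in group 8 and 3.07-fold in group 9, and Gria1 2.92-fold and 3.45-fold. In group 7, where Camk2b counts exceeded Camk2a counts, Camk4 was 4.31-fold of the rest and Actn2, an actin crosslinker that binds the kinase, 6.35-fold. In group 3 the calcium pump gene Atp2a2 was 3.04-fold of the rest, at 794 CPM against 261 CPM.

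The genes most like each subunit across the 10 brain groups were found by the Pearson correlation of log2(CPM + 1) over 5555 genes. All points share 1 library and differ in depth, so the values describe these groups only. Camk2a was closest to Gfod1 (r = 0.95), followed by Enc1, Uck2, Arl6ip5 and Mlip (r = 0.93 for the last). Among the genes closest to Camk2b were Ppp1cb, a catalytic subunit of protein phosphatase 1 (r = 0.97), Galnt18, Enox1 and Add2 (r = 0.96 for the last). Camk2d was closest to the transcription factor gene Tshz2 (r = 0.92), followed by Hivep1, Ppp4r1, Sfxn5 and Cux1 (r = 0.87). Camk2g was closest to Gm29514 (r = 0.95), followed by Frmd3, Smyd3, Zmiz1os1 and Rgs6 (r = 0.91). Across the 5 heart groups Camk2d was closest to Mta1, Dyrk1a, Mef2c, Scarb2 and Trpm7, at r of 0.995 or more among 4323 genes, a number of groups too small to set genes apart.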

How the data were processed

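The deposited values are counts, 1 sparse matrix of whole numbers per section; per the submitters' processing notes, reads were processed with STARsolo on the mouse build mm39. Its version, and whether molecular tags were merged, introns counted or strand used, are not given in the sources used here. Reads without merged tags are not independent molecules, and in that case the intervals would be too narrow even for counting error. Gene spans, exon unions and chromosome names came from GENCODE mouse release 21 on GRCm38, matched by gene ID (35551 IDs found). It is older than the files' build, and no file coordinates were mixed with it. Camk2b and Camk2d were the members found in the RefSeq promoter table (GRCm38.p6).

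Counts were summed over kept spots with Python 3.11.15, numpy 2.4.6, pandas 2.3.3 and scipy 1.17.1. Ratios have exact conditional binomial intervals, shares exact Clopper-Pearson intervals and levels exact Poisson intervals, all at 95%. For the median log2 ratios and for the ranking by ratio, 0.5 counts were added. The log2 ratios given for single genes had no counts added. Thinning used seed 1. Spots were grouped with scanpy 1.11.5 and leidenalg 0.10.2 (2000 variable genes, 20 components, 15 neighbours, resolution 0.6), after leaving out 210 listed genes, ribosomal RNA, mitochondrial genes and small structured RNA. No doublet caller was run, since spots are not cells. The size rule and the intervals of ratios and shares were run on simulated independent counts. Such counts follow the model that the intervals assume, so the run cannot check them on unmerged reads. With 1 library per tissue there is no test and no p-value.

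The text names the 4 members, partner genes past the size rule or among the 2 most abundant of their list, the 3 genes leading each group at 50 CPM or more, and the 5 genes most like each member. Camk2n1, Ppp3ca, Gria1, Camk4, Actn2 and Atp2a2 by group, and Shank3, Kcnd3, Hdac4, Hdac5 and Cacnb2, were picked after their values were seen. Some genes that these rules pick are not reported here. The members and lists were chosen with earlier results of these data known. Images and positions of the spots were not used here.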

Additional observations from a re-analysis of the deposited data

Results flagged for a closer look

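Barcodes under the spot threshold, which no comparison uses, still held counts of the family. In brain, 912 such barcodes held 118 counts of the 4 genes, 752 CPM of their counts, of which 58 were Camk2a, 22 Camk2b, 19 Camk2d and 19 Camk2g. In heart, 1266 such barcodes held 42 counts, 271 CPM, of which 4 were Camk2a, 8 Camk2b, 23 Camk2d and 7 Camk2g. Both are above the 3 counts that a count of 0 allows.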

How the results depend on the processing

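Outside ribosomal RNA the log2 ratio of heart Camk2d between the highest and lowest cardiomyocyte bins turned to 0.027, and outside ribosomal, mitochondrial and small RNA that of Shank3 turned to -0.46. On the latter scale the ratio of brain over heart of Hdac4 turned from 1.37 to 0.932. The direction of each Camk2 gene between brain and heart held under the alternatives run. With CPM over counts outside ribosomal, mitochondrial and small RNA the log2 ratio of brain over heart was 4.25 for Camk2a, 3.72 for Camk2b, -0.92 for Camk2d and 0.85 for Camk2g, and 803 of 9333 features, in place of 343 of 6345, were called higher in heart. With each spot weighing the same it was 3.64 for Camk2b, -0.12 for Camk2d and 1.59 for Camk2g, Camk2a was 52.5% of the family in brain and Camk2d 71.4% in heart. With the receptor gene density subtracted it was 5.30 for Camk2a, 5.36 for Camk2b and 1.64 for Camk2g. Shares were then 52.0% Camk2a in brain and 77.2% Camk2d in heart. No interval was computed for the subtracted ratios, so they set no order between Camk2a and Camk2b. Subtracted per kb of exons, the log2 ratio was 4.93 for Camk2a and 4.45 for Camk2b. That alternative was added after seeing the data, like the turned values of the cardiomyocyte bins and of Shank3. Per kb of exons and per kb of span these shares were 58.0% and 63.0% for Camk2a, and 46.4% and 41.7% for Camk2d. The highest Camk2a share of a brain group was 59.9% with 8 groups (resolution 0.3) and 73.3% with 13 (resolution 1). A floor of 5 CPM called 599 features higher in heart, by including genes of lower level. Elsewhere the causes were not tested. Of the other main values, 42 moved by less than their counting interval or, for counts of genes, by less than 1.5 times, among them those over all barcodes, at 1000 counts and 500 features, and at equal totals. No paired analysis was possible because each tissue has 1 library, and none could be left out. Heart Camk2a and Camk2b rest on 807 and 688 counts over 3726 spots.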
